A study of Mus musculus with 52 samples.

Results

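The comparison described here is that of spinal cord from mice carrying a mutant human profilin-1 transgene with spinal cord from wild-type mice. Its members were found by their titles: 6 libraries of transgenic mice given vehicle and 6 of wild-type mice given vehicle, 12 of the 52 libraries in the series. Of 55401 mouse genes in the table, 20307 passed a filter on low counts in the spinal cord and were tested. Poly(A) RNA was extracted from powdered tissue and sequenced in paired ends. The series also holds cortex and skeletal muscle of the same genotypes, and in each tissue a group of transgenic mice given an AAV vector with an artificial microRNA against Atxn2. The third spinal cord group entered the model to estimate the spread between libraries and is not described.

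The wild-type group (FVB_WT, strain FVB/NJ by the design text) held 3 female and 3 male libraries, all from mice 36 weeks old. The transgenic group (PFN1_C71G) also held 3 female and 3 male libraries. Transgenic replicates 2 and 3, both female, were 39 weeks old and the other 4 were 36 weeks old. Both groups received vehicle, so the groups differ in genotype and, for those 2 libraries, in age. The C71G label names a cysteine-to-glycine change in human profilin-1, known from families with amyotrophic lateral sclerosis (ALS). None of the sources used here names the promoter that drives the transgene, the number of founder lines or any difference between the groups beyond the transgene. The labels do not say that the libraries of a group came from separate animals, so p-values measure the spread between these libraries, which may be partly technical.

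Profilin binds actin monomers and, with formins and other nucleators, feeds them to growing filaments. Mutant forms linked to ALS are known to misfold and to aggregate. In ALS, the large motor neurons of the ventral horn degenerate, and the microglia and astrocytes around them change state. Microglia near dying neurons are known to lose some genes of their resting state and to switch on a disease-associated program of lipid handling, lysosomal and phagocytic genes, part of which depends on the receptor Trem2.

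Levels are in CPM, a gene's counts set to a common library total, after TMM scaling, which aligns libraries on the bulk of their genes. Fold changes are log2 values of transgenic minus wild type with their standard errors (SE). A gene was called when its p-value from edgeR's quasi-likelihood test, adjusted over all 20307 genes by the Benjamini-Hochberg method, was under 0.05. Words such as rose and fell are used for called genes only. Values in brackets after a gene are its log2 fold change. Floors and counts of 0 cover counting error only.

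The 12 libraries held 78927071 to 109285103 counts. Genes above 0 numbered 25969 to 27325 in wild-type libraries and 27059 to 27674 in transgenic ones. RNA integrity numbers were 7.2 to 8.3 and 7.2 to 7.7. The mitochondrial genome took 7.19% to 8.39% of counts in wild type and 6.87% to 8.44% in transgenic libraries. For 18 of 18 spinal cord libraries the sex-linked genes fitted the labelled sex. In 4 spinal cord libraries, transgenic replicates 5 and 6 among them, the library name and the title disagree on the treatment. Titles were used, and in 4 of 4 the counts of vector sequence fitted them. Some libraries stood apart in markers of tissue next to the cord. The Schwann cell list (Prx, Egr2 and others, genes of nerve root myelin) averaged 2.45 and 2.27 above the wild-type mean on the log2 scale in transgenic replicates 1 and 6, and between -1.45 and -0.91 in the other 4. In wild type it ran from -1.75 to 1.41. Results were therefore also computed without the 2 libraries of each group that were highest in this list (wild-type replicates 4 and 6 and transgenic replicates 1 and 6), a choice made after seeing the data.

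The transgene was present where the labels put it. Human PFN1 had 0 counts in all 6 wild-type libraries. Its unscaled level was 633 to 736 CPM in the transgenic libraries (mean 686 ± 43.6, SD, n = 6), or 54120 to 70229 counts. No fold change is given against a group at 0 beyond a lower bound: the transgenic mean was at least 125544-fold above the floor of 3 counts over the wild-type group. Mouse Pfn1 itself ran from 66.3 to 79.6 CPM (median 73.4) in wild type and from 92.4 to 109 CPM (median 99.4) in transgenic cord, with no overlap between the groups. It rose (log2 fold change 0.45, SE 0.06, adjusted p = 9.8e-06), and an exact two-sided permutation test on unscaled CPM gave p = 0.00216, the smallest that 6 against 6 allows. Reads of the human transgene and of the mouse gene can be assigned to each other where their sequences match, and how much of the difference in Pfn1 came from this was not tested. For Pfn2, the profilin most abundant in neurons, the values were: log2 fold change -0.24, SE 0.04, adjusted p = 0.00036.

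Apart from the transgene, 3 tested mouse genes changed over 2-fold in the same direction in spinal cord, cortex and muscle. Prnp, the gene of the prion protein, ran from 559.9 to 629 CPM (median 603) in wild type and from 2224 to 2608 CPM (median 2313) in transgenic cord. Every transgenic library lay above every wild-type one (log2 fold change 1.99, SE 0.05, adjusted p = 1.3e-13). Lamr1-ps1, a processed pseudogene on chromosome 2 (GRCm38, chr2:131904086-131904959, forward strand) that ends 4969 bases before the start of Prnp (chr2:131909928-131938429), had 0 counts in all 6 wild-type libraries. It had 255 to 379 counts in the transgenic ones, at least 644-fold above the floor of 3 counts over the group. Of the other 12 tested genes within 500 kb of Prnp, 2 rose, 5330413P13Rik (0.46, adjusted p = 0.013) and Pcna, 2 fell, Adra1d (-0.34) and Cds2 (-0.24), and 8 were not called. Among the 8 were Rassf2 (0.086, adjusted p = 0.35) and the scarce Prnd, whose SE of 0.92 leaves its direction unresolved. Of all tested genes 18.8% rose and 17.9% fell, so the counts near Prnp are no result about this region.

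Nbdy, which encodes a small protein of the mRNA decapping machinery and lies on the X chromosome (chrX:153723590-153741920, forward strand), went the other way. It had 1356 to 1632 counts in every wild-type library and 4 counts in total over the 6 transgenic ones, between 0 and 3 in each. In a joint fit of all tissues its antisense neighbour Gm45022, which overlaps it by 292 bases, fell as well. Reads of overlapping genes cannot be told apart where the counting is not strand-specific, and none of the sources used here states the strand setting. Only Prnp, Lamr1-ps1, Nbdy and Gm45022 passed a 2-fold change in the same direction, with an adjusted p under 0.05, in the 3 tissues. Of the genes beside Nbdy, chosen for their position, Kctd12b fell (log2 fold change -0.56, SE 0.13, adjusted p = 0.002) and Ubqln2, an ALS-linked ubiquilin, fell (log2 fold change -0.23, SE 0.04, adjusted p = 0.00037), while Spin2c had -0.20 (adjusted p = 0.072) and Klf8 -0.28 (adjusted p = 0.33).

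Thy1, a neuronal surface glycoprotein, ran from 359.8 to 383 CPM (median 370.5) in wild type and from 789 to 1002 CPM (median 950.0) in transgenic cord. It rose in all 6 transgenic libraries (log2 fold change 1.33, SE 0.17, adjusted p = 1.0e-05). As background, expression cassettes built on pieces of the Prnp or Thy1 gene are in common use for neuronal transgenes. A gene-level count cannot separate reads of such a cassette from reads of the mouse gene, and whether this applies here was not tested.

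**Figure D1:**
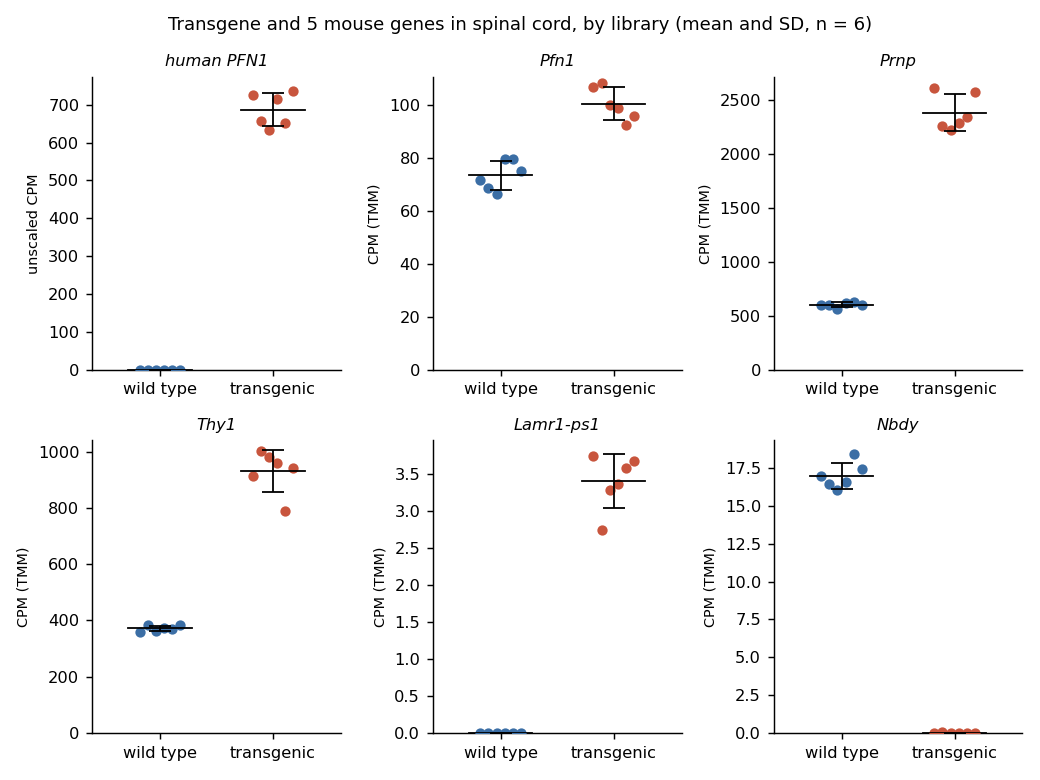
Human PFN1 (unscaled CPM) and mouse Pfn1, Prnp, Thy1, Lamr1-ps1 and Nbdy (TMM-scaled CPM) in the 12 spinal cord libraries. Each point is 1 library, the long line the mean and the bar the SD of 6. Human PFN1 and Lamr1-ps1 sit at 0 in wild type, Nbdy sits at or near 0 in the transgenic group, and the groups do not overlap in any of the 6 panels.

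Across all genes, 7442 of 20307 were called (36.6%), with 3815 higher (18.8%) and 3627 lower (17.9%) in transgenic cord. The median log2 fold change of all genes was -0.00045. With library totals alone in place of TMM that median moved to 0.096 and the split became 5346 higher and 1984 lower of 7330, so the direction of small changes depends on the scaling. Large changes were mostly rises: 1041 genes were called higher and 104 lower over 2-fold, and 358 and 9 over 4-fold. Falls were shallower, with a median of -0.29 among called genes against 0.55 for rises. The groups did not overlap for 2400 genes that were higher (11.8%) and 2248 that were lower (11.1%). Counts of list members are to be read against these shares: a list with about 18.8% higher or 17.9% lower is at the level of all genes. The lists were chosen with earlier results of these data known, so a larger share describes a list and is no test of it.

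The 12 largest rises among called genes of at least 1 CPM on average were Lamr1-ps1 and 11 genes known from macrophages, microglia or lipoprotein handling. Atp6v0d2, a subunit of the vacuolar proton pump best known from osteoclasts and macrophages, ran from 0.0119 to 0.0804 CPM (median 0.054) in wild type and from 22.7 to 30.6 CPM (median 24.8) in transgenic cord and rose (log2 fold change 9.07, SE 0.94, adjusted p = 2.3e-06). Gpnmb, a transmembrane glycoprotein of lipid-laden macrophages, ran from 0.25 to 0.792 CPM (median 0.71) in wild type and from 155 to 212 CPM (median 183) in transgenic cord (log2 fold change 8.20, SE 0.78, adjusted p = 1.1e-06). Even the lowest transgenic library was far above the highest wild-type one for both genes. The others were Mmp12, macrophage elastase (7.36), Apoc4, an apolipoprotein (6.94), Mcoln3, a lysosomal cation channel (6.78), Htr2b, a serotonin receptor (6.76), the lysozymes Lyz1 (6.35) and Lyz2 (5.91), Cst7, cystatin F (6.19), the scavenger receptor Msr1 (5.65) and Ms4a7 (5.60). For each of them no transgenic library overlapped a wild-type one. In sheer amount of message, Apoe and Gfap gained most: Apoe, the main lipid carrier of the nervous system, went from 1015 ± 77.2 to 4896 ± 298 CPM (SD, n = 6), and Gfap, the intermediate filament of astrocytes, from 1746 ± 504 to 4917 ± 253 CPM (SD, n = 6). Prnp, Ctsd, Lyz2, Ctsb, Eef1a1, Thy1, Aqp4 and Neat1 made up the rest of the 10 largest gains in CPM.

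The 12 largest falls were led by Nbdy and held genes of sterol synthesis and its control, Idi1, Hmgcs1 and Insig1 among them, 2 heat shock genes and the motor neuron gene Chodl. Aqp6, a water channel, fell by 2.15 on the log2 scale (adjusted p = 2.0e-05), Pla2g3, a secreted phospholipase, by 1.78 and Smyd1, a methyltransferase known from striated muscle, by 1.52. A list of 8 skeletal muscle markers had a median of -1.86 with none called. Its mean per library ran from -1.61 to 1.82 in wild type and from -1.77 to -0.21 in transgenic cord, relative to the wild-type mean. Whether muscle left on the cord had a part in Smyd1 was not tested. Hspa1a and Hspa1b, the inducible HSP70 genes, fell on average (-1.68 and -1.62) but their groups overlapped, as described with the stress genes. In CPM, the 10 largest losses included those of Scd2, Nefm, Map1b, Nefl, Map1a, Nefh, Snap25 and Kif5a: neurofilaments, microtubule-associated proteins, a synaptic SNARE, a kinesin and a fatty acid desaturase.

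Microglial genes did not move as a block. Of 14 genes of the homeostatic state, 10 rose and 1 fell, with a median of 0.62. Cx3cr1, the fractalkine receptor, ran from 35.8 to 49.9 CPM (median 38.3) in wild type and from 101 to 125 CPM (median 112) in transgenic cord, and rose in every transgenic library (log2 fold change 1.46, SE 0.14, adjusted p = 9.5e-07). P2ry13 (0.98) and Fcrls (4.36) rose as well. P2ry12, the purinergic receptor that steers microglial processes, ran from 20.1 to 27.1 CPM (median 22.4) in wild type and from 19.9 to 29.8 CPM (median 24.7) in transgenic cord. The groups overlapped, and its log2 fold change was 0.079 (SE 0.09, adjusted p = 0.54). Siglech (-0.13, adjusted p = 0.29) and Sall1 (-0.16, adjusted p = 0.087), transcription factor of microglial identity, were not called either. Slc2a5, a fructose transporter of resting microglia, was the only member to fall (log2 fold change -0.88, SE 0.23, adjusted p = 0.0055). Tmem119 had 0.29 (adjusted p = 0.023) with overlapping groups. In whole tissue, more cells of a type and more RNA per cell cannot be told apart, and the same holds for fewer cells and less RNA.

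The disease-associated program rose almost whole. Of its 25 genes, 24 were called higher and none lower, with a median of 2.81 against -0.00045 for all genes, and for those 24 the groups did not overlap. Trem2, the lipid-sensing receptor on which part of the program depends, ran from 5.96 to 9.37 CPM (median 6.86) in wild type and from 52.7 to 60.3 CPM (median 53.8) in transgenic cord (log2 fold change 2.91, SE 0.26, adjusted p = 4.2e-07). Its signalling partner Tyrobp had 3.14 (adjusted p = 4.9e-07). Cybb, the catalytic subunit of the phagocyte oxidase, rose most clearly (log2 fold change 4.37, SE 0.33, adjusted p = 1.9e-07), followed by Ctsz (2.02), Ch25h (3.50), which makes 25-hydroxycholesterol, and Lgals3 (4.25), a lectin recruited to damaged lysosomes. Apoe ran from 910.4 to 1111 CPM (median 1004) in wild type and from 4528 to 5383 CPM (median 4881) in transgenic cord (log2 fold change 2.26, SE 0.25, adjusted p = 3.3e-06). Fth1, ferritin heavy chain, was the 1 member not called (0.22, adjusted p = 0.16).

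Genes of phagocytosis rose beside them. All 10 tested Fc gamma receptor and Ms4a genes rose, none of whose groups overlapped (median 3.36). Ms4a6c went from 0.572 ± 0.102 to 12.2 ± 1.05 CPM (SD, n = 6) and Fcgr4, a receptor for IgG2, from 0.0896 ± 0.0269 to 1.46 ± 0.321 CPM (SD, n = 6). Fcer1g, the signalling chain shared by Fc receptors, rose by 2.97 and Fcgr3 by 2.36. Of 9 genes of the NADPH oxidase, 8 rose (median 1.65), among them Rac2 (1.87), Cyba (2.90) and Ncf4 (2.36), subunits of the phagocyte enzyme. Of 16 phagocytic and scavenger receptors, 8 rose and none fell (median 0.95). Cd300lf (2.96), Havcr2 (2.25), Olr1 (3.66) and Msr1 (5.65) led. The bridging proteins Gas6 (-0.084, adjusted p = 0.29) and Mfge8 (0.13, adjusted p = 0.36) and the astrocyte receptor Megf10 (-0.13, adjusted p = 0.52) were not called. Cd36 was 2.68 CPM or more in each transgenic library and at most 1.66 CPM in wild type, yet was not called (2.92, SE 1.18, adjusted p = 0.066). Its transgenic median was 4.51 CPM, and 1 library stood far above it.

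Of 17 transcription factors of myeloid cells, 16 rose (median 1.03): Spi1, which encodes PU.1 (1.98), Irf8 (2.36) and Irf5 (1.56) were among those with the smallest adjusted p-values. Complement followed, with 13 of 18 higher and none lower (median 1.62). C1qc (2.89), C1qb (2.81) and the receptor C3ar1 (4.09) rose, as did Itgb2 (2.87), a chain of complement receptors 3 and 4. Of 22 Toll-like receptor and inflammasome genes, 19 rose (median 1.23). The adaptor Pycard rose by 1.94, Tlr1 by 2.65, Gsdmd, the pore former of pyroptosis, by 1.20 and Casp4 by 2.04. Il18 (-0.09, adjusted p = 0.4) was not called. Of 23 cytokines and cytokine receptors, 21 rose (median 1.20), with Csf2rb (2.96), the decoy Il1rn (3.47), Il21r (2.09) and Il2rg (2.10) first. Tnf was scarce, at 0.0655 ± 0.0321 CPM in wild type and 0.451 ± 0.169 CPM in transgenic cord (SD, n = 6; log2 fold change 2.70, SE 0.42, adjusted p = 7.3e-05). Of 15 chemokines, 10 rose and 1 fell (median 2.00). Cxcl16 (2.57), Ccl3 (3.34), Ccl9 (1.81) and Ccl4 (3.41) rose and the neuronal chemokine Cx3cl1, ligand of Cx3cr1, fell (log2 fold change -0.20, SE 0.07, adjusted p = 0.022). With library totals alone Cx3cl1 was not called.

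Short sequences bound by factors of these genes can be read in the promoters, here RefSeq's 250 bases before and 50 after each gene's start (GRCm38.p6). Promoters were at hand for 27025 genes. The PU.1-type letters GAGGAAGT, searched on both strands, were present in 3.69% of them. They were in 4 of 18 Toll-like receptor and inflammasome promoters (22.2%: Aim2, Pycard, Tlr1 and Tlr9), in 3 of 12 of the phagocytic receptors (25%: Cd300lf, Havcr2 and Itgav) and in 1 of 9 of the Fc receptor and Ms4a genes (11.1%: Fcgr4). Among the disease-associated genes 1 of 21 held them (4.76%), and in complement 1 of 11 (9.09%). The highest shares of the lists searched were in neutrophil genes (4 of 10, 40%) and monocyte genes (3 of 8, 37.5%). In those 2 lists only 1 of 10 and 3 of 10 genes were called higher. None of 19 promoters of cytokines and their receptors, 13 of myeloid transcription factors and 6 of the NADPH oxidase held them. Shown are Pycard, Tlr1 and Fcgr4, each among the 4 genes of its list with the smallest adjusted p, with the match in capitals.
Pycard: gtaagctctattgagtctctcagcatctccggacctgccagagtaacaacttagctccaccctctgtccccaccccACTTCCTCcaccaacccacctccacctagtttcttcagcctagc
Tlr1: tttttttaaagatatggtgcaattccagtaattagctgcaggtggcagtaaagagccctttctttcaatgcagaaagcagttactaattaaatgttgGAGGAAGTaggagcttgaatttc
Fcgr4: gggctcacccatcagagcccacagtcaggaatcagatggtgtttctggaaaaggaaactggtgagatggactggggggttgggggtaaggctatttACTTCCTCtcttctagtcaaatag
The Pycard stretch is chr7:127993868-127993987 on the reverse strand, and its first match begins 44 bases before the start. The Tlr1 stretch is chr5:64933559-64933678 on the reverse strand, and its first match begins 23 bases before the start. The Fcgr4 stretch is chr1:171018806-171018925 on the forward strand, and its first match begins 24 bases before the start. A match describes these letters and is no evidence of binding, and promoters without them say nothing about the factor.

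Lysosomal genes rose together and the proton pump did not. Of 33 hydrolases and membrane proteins, 27 rose and none fell (median 0.39). Ctsh, cathepsin H, ran from 6.55 to 8.57 CPM (median 7.96) in wild type and from 45.7 to 59.0 CPM (median 48.7) in transgenic cord (log2 fold change 2.69, SE 0.24, adjusted p = 4.1e-07). Lipa, lysosomal acid lipase, rose by 0.77, Ctsa, protective protein cathepsin A, by 1.05 and Gusb, beta-glucuronidase, by 1.80. Ctsd, the cathepsin with the largest gain in CPM, went from 392 ± 29.8 to 1996 ± 159 CPM (SD, n = 6). The 6 not called included Neu1 (-0.062, adjusted p = 0.4), Npc1 (-0.12, adjusted p = 0.26), the cholesterol exporter of lysosomes, and Mcoln1 (-0.033, adjusted p = 0.64). The 21 V-ATPase genes split, with 5 higher and 8 lower (median -0.08, which turned to 0.01 with library totals alone, where 5 were higher and 5 lower). Without transgenic replicate 3, or without the libraries of older mice, 3 were higher, and with the 4 libraries of conflicting names grouped by those names 4 were lower. Atp6v0d2 and Tcirg1 (1.06), subunit forms of macrophages and osteoclasts, rose. The widely used Atp6v1a (-0.33), Atp6v1b2 (-0.39), Atp6v0a1 (-0.28) and Atp6v1h (-0.21) fell. Of 21 autophagy genes, 1 rose and 9 fell with TMM (median -0.10), and 5 rose and 4 fell with library totals alone. With the grouping by library names 5 fell. Ulk1 (-0.30) and Map1lc3b (-0.26) fell and Gabarap rose (0.24), while Sqstm1, the autophagy receptor p62, had 0.01 (adjusted p = 0.89).

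Many lysosomal promoters carry the palindrome TCACGTGA, bound by TFEB-type factors. It was in 4 of 27 lysosomal promoters at hand (14.8%) and in 1.12% of all 27025. The 4 were Ctsa, Gla (0.29, adjusted p = 0.00067), Cln3 (0.51, adjusted p = 1.9e-05) and Mcoln1. Ctsa is shown as one of the 4 lysosomal genes with the smallest adjusted p, and Gla and Cln3 were chosen for their match.
Ctsa: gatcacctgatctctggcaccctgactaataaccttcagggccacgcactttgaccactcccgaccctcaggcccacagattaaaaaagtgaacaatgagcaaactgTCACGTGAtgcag
Gla: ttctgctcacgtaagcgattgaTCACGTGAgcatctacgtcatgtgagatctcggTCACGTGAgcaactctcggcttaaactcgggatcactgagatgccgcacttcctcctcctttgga
Cln3: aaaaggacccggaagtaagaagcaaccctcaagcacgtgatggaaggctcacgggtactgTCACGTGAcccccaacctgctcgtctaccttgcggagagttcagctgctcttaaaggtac
The Ctsa stretch is chr2:164833653-164833772 on the forward strand, and its first match begins 13 bases before the start. The Gla stretch is chrX:134601136-134601255 on the reverse strand, and its first match begins 228 bases before the start. The Cln3 stretch is chr7:126583299-126583418 on the reverse strand, and its first match begins 122 bases before the start. Tfeb itself had 0.23 (adjusted p = 0.015) and Tfe3 had 0.19 (adjusted p = 0.0016).

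Sterol genes went opposite ways. All 21 tested genes of cholesterol synthesis were called lower, where 17.9% of all genes were, with a median of -0.99; with library totals alone 19 were. Hmgcs1, which makes HMG-CoA at the head of the pathway, ran from 334 to 554 CPM (median 437) in wild type and from 129 to 219.6 CPM (median 153) in transgenic cord (log2 fold change -1.43, SE 0.21, adjusted p = 4.1e-05). No library of one group reached the other. Cyp51 fell by 1.27, Lss, which closes the lanosterol ring system, by 0.97 and Sc5d by 0.95. The regulators of the pathway fell too: of 17 genes of SREBP control and lipogenesis, 10 fell and 1 rose (median -0.53). Stard4 (-1.32), Srebf2 (-0.59), which encodes the master regulator SREBP2, and Insig1 (-1.41) fell, and Srebf1 rose (log2 fold change 0.38, SE 0.07, adjusted p = 0.00059).

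Genes of lipid uptake, storage and efflux rose: 12 of 18, and none fell (median 0.84). Mylip, a ubiquitin ligase, rose by 1.06 (adjusted p = 3.1e-07), and the apolipoproteins Apoc2 (6.25), Apoc4 (6.94) and Apoc1 (3.24) rose. Further values were 2.16 for the cholesterol exporter Abca1 (adjusted p = 0.0002), 0.48 for Abcg1 (adjusted p = 0.00012), 0.77 for Soat1, which esterifies cholesterol for storage (adjusted p = 0.00035), and 1.36 for Plin2, a coat protein of lipid droplets (adjusted p = 0.0014). Mylip, Abca1 and Abcg1 are known targets of the sterol-sensing LXR receptors. Their genes Nr1h3 (0.32, adjusted p = 0.15) and Nr1h2 (-0.14, adjusted p = 0.065) were not called.

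The sterol element TCACNCCAC of SREBP was searched in the same promoters. It was in 1 of 16 cholesterol synthesis promoters at hand (6.25%), that of Hmgcs1, and in 1.44% of all 27025. A single match is too few to set this list apart. Lists outside the pathway had similar or higher shares: synaptic vesicle release 2 of 16 (12.5%), MHC class II 1 of 7 (14.3%) and lysosomal genes 2 of 27 (7.41%). Others had none, such as cell proliferation (0 of 20) and complement (0 of 11). Its promoter is shown for that match, and Hmgcs1 lost most in CPM among the genes of the pathway.
Hmgcs1: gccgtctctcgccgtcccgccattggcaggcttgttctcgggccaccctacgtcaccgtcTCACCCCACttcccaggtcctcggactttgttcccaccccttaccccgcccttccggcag
The Hmgcs1 stretch is chr13:119690154-119690273 on the forward strand, and its first match begins 137 bases before the start.

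Markers of T cells and of natural killer cells were low in both groups, with sums of at most 8.12 and 1.99 CPM in any library. Of 14 T cell genes, 10 rose (median 1.35). With only the 12 libraries in the fit, 10 of the 14 passed the filter on low counts and 6 rose. The rest passed it only with the third spinal cord group included. The levels were small: Cd8a went from 0.0117 ± 0.0182 to 0.0879 ± 0.0308 CPM (SD, n = 6). Cd5, which ran from 0.0295 to 0.147 CPM (median 0.0522) in wild type and from 0.217 to 0.384 CPM (median 0.302) in transgenic cord, rose by 2.16 (adjusted p = 0.00013). Trbc2 (1.35) and Cd2 (1.73) rose as well. Of 8 genes of natural killer and cytotoxic cells, 5 rose (median 1.73), led by Klrb1c (2.30) and Klrk1 (1.95), and Gzma (0.92, adjusted p = 0.079) and Prf1 (0.49, adjusted p = 0.49) were not called. Gzmb and Eomes did not pass the filter. The 8 genes summed to 0.226 to 0.846 CPM in wild type and 1.48 to 1.99 CPM in transgenic libraries. Some may have passed the filter only through transgenic libraries, so their count and median may lean towards rises. Of 9 B and plasma cell genes, 3 rose (median 0.97), Ms4a1 (1.74) among them. The 10 monocyte genes summed to 57.6 to 76.2 CPM in wild type and 113 to 151 CPM in transgenic libraries. Of these, S100a4 (3.06), Ms4a4c (2.63) and Fn1 (1.02) rose, and Ccr2, the receptor that draws monocytes from blood, did not pass (0.82, adjusted p = 0.22). With library totals alone 6 of the 10 rose. Border macrophage genes had 5 of 10 higher: Siglec1 ran from 0.247 to 0.758 CPM (median 0.423) in wild type and from 16.2 to 19.2 CPM (median 16.9) in transgenic cord (log2 fold change 5.31, SE 0.44, adjusted p = 3.1e-07), while the defining markers Cd163 (0.064, adjusted p = 0.86), Lyve1 (0.071, adjusted p = 0.94) and Mrc1 (0.55, adjusted p = 0.22) were not called.

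Neutrophil genes showed 1 of 10 called higher, Mmp8 (1.74), with a median of 1.33. Their spread went with single libraries: transgenic replicate 5 averaged 2.56 above the wild-type mean in this list and 2.63 in the red cell list, and wild-type replicates 4 and 6 averaged 1.42 and 1.14. Without the 4 libraries highest in nerve root genes, 9 of 10 neutrophil genes were called higher (median 3.07). Blood left in the tissue was not measured apart, and its part in these genes was not tested. The 5 red cell genes had a median of 0.95 and none was called, Hbb-bs running from 13.8 to 110.2 CPM in wild type and from 29.8 to 298 CPM in transgenic cord.

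Chemokine receptors had 7 of 10 higher and 1 lower (median 0.76), with Cxcr4 (1.65), Ccrl2 (1.14), Cxcr6 (2.48) and Cxcr3 (2.38) first and the vessel receptor Ackr1 lower (-0.38).

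Genes of antigen presentation rose. Of 14 MHC class I genes, 13 rose (median 0.99). B2m, the light chain of every class I molecule, ran from 43.0 to 66.9 CPM (median 49.9) in wild type and from 156 to 181 CPM (median 165) in transgenic cord (log2 fold change 1.67, SE 0.12, adjusted p = 1.4e-07). H2-D1 (0.95), the immunoproteasome subunit Psmb8 (1.31) and Tapbp (0.48) followed. Class II genes had 8 of 11 higher (median 1.03), with the costimulator Cd86 (1.93), H2-Ob (1.58), H2-DMb1 (0.71) and the invariant chain Cd74 (1.49). Ciita, the master regulator of class II genes, was not called (0.85, adjusted p = 0.12). The H2 genes are near-identical copies in places, so counts may be shared among them.

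Of 20 interferon-stimulated genes, 12 rose and none fell (median 0.48). Bst2, tetherin, ran from 1.24 to 1.56 CPM (median 1.40) in wild type and from 3.10 to 4.28 CPM (median 3.35) in transgenic cord (log2 fold change 1.33, SE 0.10, adjusted p = 1.4e-07). Oas1a (1.10), Ifitm3 (1.00) and Xaf1 (0.57) rose, and Stat2 (-0.065, adjusted p = 0.41), which carries the signal, was not called. Without the 4 libraries highest in nerve root genes 6 of the 20 were called. Of 14 interferon-inducible GTPases, Gbp2 (log2 fold change 1.14, SE 0.18, adjusted p = 7.9e-05), Irgm1 (0.52), Gbp5 (0.78) and Gbp3 (0.67) rose (median 0.52), 2 without those 4 libraries and 7 with library totals alone or with only the 12 libraries in the fit. Wild-type replicates 1 and 2, both female, were already high in the GTPases, at 0.77 and 0.48 above the wild-type mean, where the other 4 wild-type libraries lay between -0.39 and -0.22 and the transgenic ones between 0.19 and 0.87. In the list mean the groups overlapped through these 2 wild-type libraries. For 2 of the 14 genes the groups did not overlap, a share near the 11.8% of all genes that were higher without overlap.

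Promoters of these lists shared 1 element. The interferon element, read as TTTC, 2 bases of any kind and TTTC again, on either strand, was in 9 of 10 GTPase promoters at hand (90%) and in 8 of 13 of the interferon-stimulated genes (61.5%), against 3.99% of all 27025. Stat2 carries it and was not called. Shown are the called genes with the smallest adjusted p of each list that hold it, with all matches in capitals. Matches that overlap run together.
Gbp2: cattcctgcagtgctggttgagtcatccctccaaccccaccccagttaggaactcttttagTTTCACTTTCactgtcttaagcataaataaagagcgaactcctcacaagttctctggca
Irgm1: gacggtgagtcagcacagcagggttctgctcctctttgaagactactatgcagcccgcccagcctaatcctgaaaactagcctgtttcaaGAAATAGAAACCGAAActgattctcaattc
Bst2: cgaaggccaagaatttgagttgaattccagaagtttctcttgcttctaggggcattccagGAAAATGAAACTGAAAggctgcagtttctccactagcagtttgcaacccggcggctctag
Oas1a: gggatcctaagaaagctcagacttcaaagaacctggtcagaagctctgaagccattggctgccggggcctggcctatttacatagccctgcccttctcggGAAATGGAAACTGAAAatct
The Gbp2 stretch is chr3:142620543-142620662 on the forward strand, and its first match begins 59 bases before the start. The Irgm1 stretch is chr11:48871421-48871540 on the reverse strand, and its first match begins 30 bases before the start. The Bst2 stretch is chr8:71537543-71537662 on the reverse strand, and its first match begins 130 bases before the start. The Oas1a stretch is chr5:120907526-120907645 on the reverse strand, and its first match begins 20 bases before the start.

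**Figure D2:**
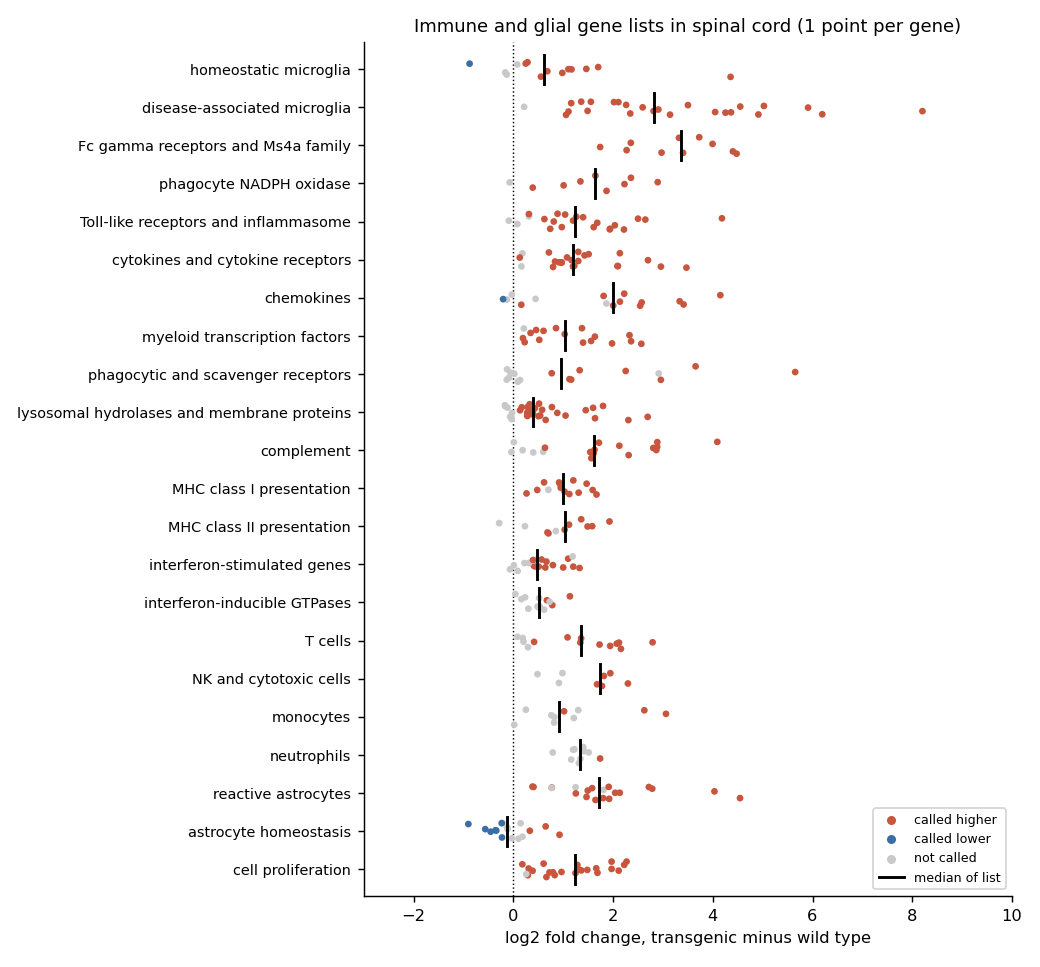
Log2 fold changes of the genes in 22 immune and glial lists. Each point is 1 gene, colored by its call, the vertical tick is the list's median, and the dotted line is the median of all genes (-0.00045). The disease-associated microglia list (median 2.81) and the Fc receptor and Ms4a list (median 3.36) lie farthest right, and astrocyte homeostasis (median -0.13) spans both sides.

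Genes of dividing cells rose: 22 of 23, with a median of 1.25. Mcm3, part of the replicative helicase, ran from 2.99 to 3.72 CPM (median 3.42) in wild type and from 6.28 to 7.42 CPM (median 6.60) in transgenic cord (log2 fold change 0.97, SE 0.07, adjusted p = 1.6e-07). Pcna (0.39), Mcm6 (1.48) and Aurkb (2.22) rose. Top2a ran from 0.619 to 1.45 CPM (median 1.22) in wild type and from 1.89 to 10.4 CPM (median 5.76) in transgenic cord, and Mki67, the usual marker of cycling cells, overlapped between the groups (log2 fold change 1.97, SE 0.40, adjusted p = 0.00096). The transgenic libraries differed among themselves, with list means of 0.27 and 0.32 above wild type in replicates 3 and 2 and 0.72 to 1.28 in the others. Replicates 2 and 3 are the libraries of older mice. Which cells divided cannot be read from whole tissue.

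Of 13 p53 targets and senescence genes, 8 rose and 1 fell (median 0.49). Gdf15 rose from very low levels (0.0167 ± 0.0131 to 0.403 ± 0.157 CPM (SD, n = 6)). Bax (0.35), the death receptor Eda2r (2.05) and Cdkn2a (2.35), which encodes p16 and p19ARF, rose, and Zmat3 fell (log2 fold change -0.41, SE 0.05, adjusted p = 1.1e-05). Cdkn1a, which encodes p21, had 0.78 (adjusted p = 0.00098). In the cell death list 12 of 16 rose and 1 fell (median 0.60): Casp8 (1.49), Bcl2a1b (3.73), Fas (1.70) and Bcl2l11 (0.64) rose and Gsdme fell (-0.28). The necroptosis genes Ripk3 (1.36, adjusted p = 0.002) and Mlkl (0.70, adjusted p = 0.046) were at low levels, 0.146 ± 0.0468 CPM in wild type and 0.375 ± 0.0917 CPM in transgenic cord and 0.28 ± 0.0599 CPM in wild type and 0.457 ± 0.0629 CPM in transgenic cord (SD, n = 6).

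Genes listed for astrocytes went both ways, and which cells they came from cannot be read from whole tissue. Of 20 genes of the reactive state, 17 rose and none fell (median 1.73), and the groups did not overlap for those 17. Gfap ran from 1084 to 2610.1 CPM (median 1719) in wild type and from 4516 to 5155 CPM (median 4973) in transgenic cord (log2 fold change 1.49, SE 0.23, adjusted p = 8.3e-05). Vim, the second intermediate filament of reactive astrocytes, ran from 57.3 to 98.6 CPM (median 77.8) in wild type and from 417 to 596 CPM (median 505) in transgenic cord (log2 fold change 2.72, SE 0.22, adjusted p = 2.1e-07). Timp1, an inhibitor of metalloproteinases, rose from 0.389 ± 0.121 to 6.36 ± 0.7 CPM (SD, n = 6), Cd14 by 1.91 and Socs3, a brake on cytokine signalling, by 2.79. Lcn2 (1.25, adjusted p = 0.05), Cxcl10 (0.77, adjusted p = 0.1) and Steap4 (1.81, adjusted p = 0.2) were not called.

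Of 17 genes of astrocyte upkeep, 7 fell and 3 rose (median -0.13, and -0.03 with library totals alone). Slc7a10, the astrocyte transporter of D-serine and glycine, ran from 57.9 to 68.9 CPM (median 62.9) in wild type and from 28.1 to 37.3 CPM (median 34.2) in transgenic cord (log2 fold change -0.90, SE 0.12, adjusted p = 1.6e-05). The GABA transporter Slc6a11 (-0.56) and Fgfr3 (-0.34) fell, and Sox9 (0.65), Aldh1l1 (0.33) and Aqp4, the water channel of astrocyte endfeet (log2 fold change 0.93, SE 0.23, adjusted p = 0.0045), rose. The glutamate transporter Slc1a2 (-0.22, adjusted p = 0.15), loss of which is described in ALS, was not called. Its partner Slc1a3 (0.15, adjusted p = 0.084) was not called either.

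Myelin and vessels moved little. Of 17 oligodendrocyte genes 3 rose and 2 fell (median -0.10). Opalin (0.73), Cldn11 (0.37) and Trf (0.31) rose and Fa2h (-0.51) and Ugt8a (-0.48), both enzymes of myelin galactolipids, fell, while Mbp (-0.17, adjusted p = 0.33) did not pass. Among 10 precursor genes, Gpr17, a marker of cells committed to myelination, rose (log2 fold change 1.39, SE 0.24, adjusted p = 0.00025), as did Cspg4 (0.75) and Neu4 (0.58), Olig1 fell (-0.23), and Pdgfra was not called (0.24, adjusted p = 0.081). Mfsd2a, a lipid transporter of the blood-brain barrier, fell (log2 fold change -0.76, SE 0.11, adjusted p = 6.1e-05) and was the only one of 13 endothelial genes called. That list's median was -0.06, and 0.04 with library totals alone. Of 10 genes of fibroblasts and meninges none was called: Col1a1 had 1.24 (SE 0.59, adjusted p = 0.12) and was high in transgenic replicates 1 and 6. Of 9 ependymal genes, Mia (0.94), Rarres2 (1.17) and Cfap126 (0.84) rose, and Foxj1 was not called (0.10, adjusted p = 0.47).

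Most neuronal lists held falls and few rises. Of 18 motor neuron genes 14 fell and none rose, with a median of -0.79. Chodl, a marker of fast motor neurons, ran from 34.3 to 56.3 CPM (median 44.1) in wild type and from 3.34 to 19.3 CPM (median 10.9) in transgenic cord (log2 fold change -1.97, SE 0.26, adjusted p = 1.6e-05). Mmp9, known from the same fast and vulnerable neurons, ran from 8.43 to 14.4 CPM (median 9.78) in wild type and from 4.18 to 6.73 CPM (median 4.58) in transgenic cord (log2 fold change -1.14, SE 0.15, adjusted p = 1.3e-05). Both groups stayed apart for both genes. Slc18a3, the vesicular acetylcholine transporter, ran from 33.1 to 42.9 CPM (median 40.6) in wild type and from 6.13 to 24.1 CPM (median 21.0) in transgenic cord (log2 fold change -1.12, SE 0.25, adjusted p = 0.0021), and Chat, which makes acetylcholine, had -0.88 (SE 0.19, adjusted p = 0.0014). Ache (-0.44) and the nuclear receptor Esrrg (-0.66) fell. Transgenic replicate 1 was lowest, with a list mean of -1.37 against -0.83 to -0.40 in the other 5, and it was among the highest in nerve root genes. Without the 4 libraries highest in those genes 11 of 18 fell (median -0.69). There were 9 lower without the 4 libraries whose names and titles disagree, and 6 with those 4 grouped by their names. Gfra1 (0.12, adjusted p = 0.26) and Foxp1 (0.03, adjusted p = 0.62), which are also found in other neurons, were not called.

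Other neurons of the cord changed less evenly. Among 9 ventral interneuron genes 5 fell (median -0.45; 3 with library totals alone, and 1 without the 4 libraries whose names and titles disagree). Leaving out wild-type replicate 2 or 6 or transgenic replicate 1 or 5 also gave 3. Sox14 (-0.67), Chrna2, known from Renshaw cells (-0.96), and Evx1 (-0.76) were among those with the smallest adjusted p-values. Of 13 genes of inhibitory interneurons 4 fell (median -0.21). Slc6a5, the neuronal glycine transporter, ran from 487 to 582 CPM (median 541) in wild type and from 289 to 381 CPM (median 322) in transgenic cord (log2 fold change -0.72, SE 0.08, adjusted p = 2.6e-06), and Slc32a1 (-0.48) and Pvalb (-0.38) fell. The GABA-making enzymes Gad1 (-0.10, adjusted p = 0.36) and Gad2 (-0.21, adjusted p = 0.17) were not called. Of 15 genes of excitatory interneurons of the dorsal horn 2 were called higher and 1 lower (median 0.23), where 18.8% of all genes were higher and 17.9% lower, so neither count stands above the background. Slc17a6, the main vesicular glutamate transporter of the cord, fell (log2 fold change -0.40, SE 0.06, adjusted p = 2.9e-05) and the neuropeptide genes Nts (0.45) and Npff (0.36) rose. Without the 4 libraries highest in nerve root genes neither rise was called.

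Structural genes of axons fell as a group: 17 of 19, none higher, with a median of -0.53. Nefh, the heavy neurofilament chain, ran from 1169.5 to 1531 CPM (median 1304) in wild type and from 448 to 739 CPM (median 656) in transgenic cord (log2 fold change -1.11, SE 0.15, adjusted p = 2.1e-05). Nefl ran from 1624 to 1959 CPM (median 1749) in wild type and from 744 to 1154 CPM (median 953) in transgenic cord (log2 fold change -0.89, SE 0.12, adjusted p = 2.5e-05) and Nefm fell by 0.92. No transgenic library reached the wild-type range for any of the 3. Kif5a, a kinesin motor mutated in some ALS families, fell by 0.53 (adjusted p = 3.1e-05) and Stmn2, a tubulin regulator whose loss is known from TDP-43 disease, by 0.48. Stmn1 (0.0073, adjusted p = 0.95) and Kif5b (-0.38, adjusted p = 0.23) were not called. Synaptic vesicle genes had 15 of 20 lower (median -0.39): Cplx1 (-0.58), Vamp1 (-0.68), Sv2b (-0.85) and Sv2c (-0.75) fell. The related Cplx2 (-0.076, adjusted p = 0.42), Vamp2 (0.055, adjusted p = 0.5) and Syt1 (-0.025, adjusted p = 0.87) were not called, and Syt2 had -0.74 (adjusted p = 1.6e-05). The difference between the paired forms was not tested.

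Channels and receptors fell in part. Of 25 glutamate receptor genes 14 fell and none rose (median -0.29; 10 with library totals alone and 9 without the 4 libraries highest in nerve root genes). Gria4 (-0.46), the NMDA receptor subunit Grin3b (-1.24), Grm3 (-0.46) and Grin1 (-0.45) fell, and Gria2 (-0.0076, adjusted p = 0.97), which makes AMPA receptors impermeable to calcium, was not called. Of 17 GABA-A and glycine receptor genes 7 fell (median -0.24): Gabra5 (-0.43), Gphn (-0.25) and Glrb (-0.42) were among those with the smallest adjusted p-values. Of 30 potassium channels 15 fell and 2 rose (median -0.26). Kcnk9 (-0.66), Kcnn2 (-0.34) and Kcnh2 (-0.49) fell, and Kcnn4 (1.42) and Kcnj2 (0.39), both known from microglia, rose. Sodium channels had 4 of 12 lower (median -0.21), Scn4b (-0.78), Scn8a (-0.65) and Scn1a (-0.65) among them. Calcium channels had 8 of 16 lower (median -0.21), led by Cacna2d3 (-0.62), Cacnb2 (-0.33), Cacng2 (-0.50) and Cacna2d2 (-0.31).

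Injury genes rose in the same tissue. Of 16 genes of neuronal injury and regeneration 8 rose and 2 fell (median 0.30). Atf3, a transcription factor switched on by axon damage, ran from 1.22 to 2.87 CPM (median 1.98) in wild type and from 11.4 to 18.8 CPM (median 14.6) in transgenic cord (log2 fold change 2.85, SE 0.36, adjusted p = 1.3e-05). Gadd45a (0.68), Sprr1a, from 0.0767 ± 0.04 to 1.89 ± 1.23 CPM (SD, n = 6), and Tnfrsf12a (0.71) rose, and Cckbr (-0.29) and Lifr (-0.41) fell. Arg1 (-0.91, adjusted p = 0.099) and Sox11 (0.32, adjusted p = 0.071) were not called. Of 11 immediate early genes Junb rose (0.87) and Arc fell (-0.39); the median was -0.07, and 0.02 with library totals alone. Among 21 neurotrophic factors and receptors 10 rose and 4 fell (median 0.29). Grn, progranulin, ran from 36.5 to 44.2 CPM (median 38.4) in wild type and from 145 to 177 CPM (median 159) in transgenic cord (log2 fold change 2.02, SE 0.19, adjusted p = 5.5e-07). Osm (2.92), Clcf1 (1.17) and Lif (1.30), cytokines that signal through gp130, rose, and Vegfa (-0.55), Igf1r (-0.21), Ntrk3 (-0.14) and Cntfr (-0.29) fell. Of these 4, Igf1r, Ntrk3 and Cntfr lost the call with library totals alone, where 11 genes of the list were higher and 1 lower, and 1 was lower without the 4 libraries highest in nerve root genes. Bdnf (0.0017, adjusted p = 0.99) was not called. Among 12 genes of NAD and axon protection, Naprt (0.94), Nmnat3 (0.74), Cd38 (0.29) and Nmrk1 (0.20) rose and Sarm1, the NAD-cleaving executor of axon loss (log2 fold change -0.54, SE 0.07, adjusted p = 8.2e-06), Nmnat2 (-0.35) and Map3k12 (-0.22) fell. With the grouping by library names 2 rose.

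**Figure D3:**
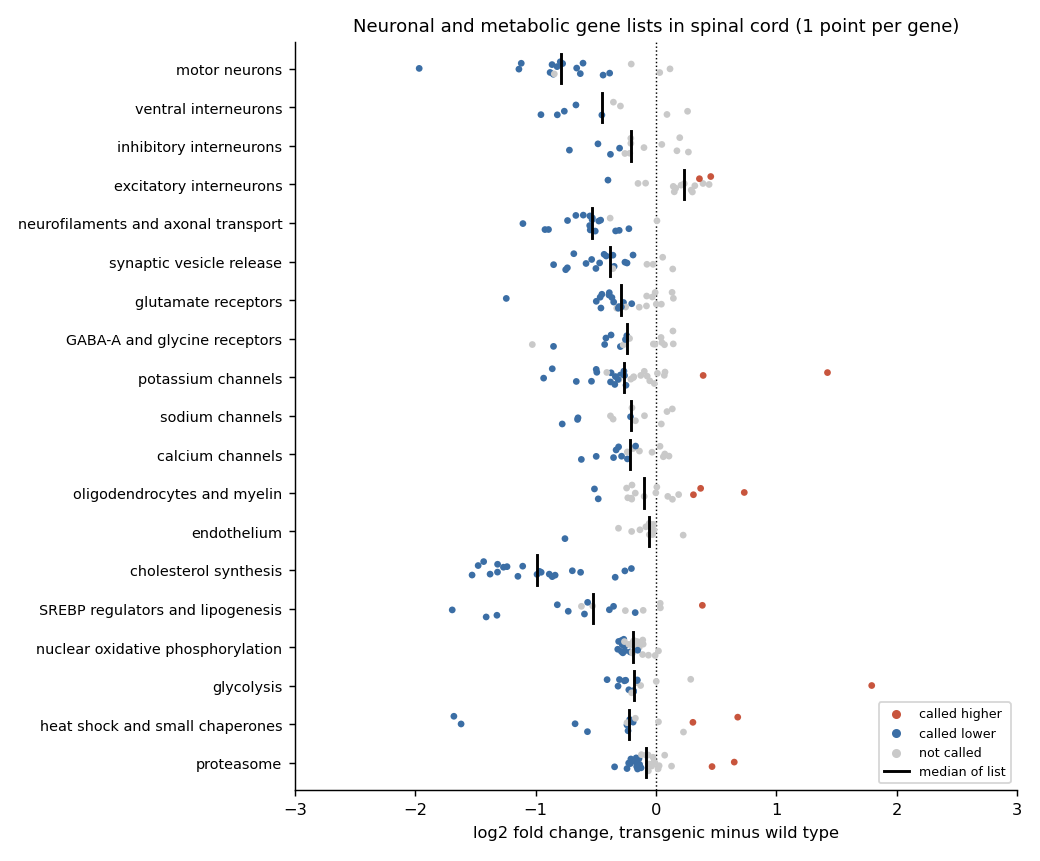
Log2 fold changes of the genes in 19 neuronal, glial and metabolic lists, drawn as in the plot of immune lists but on a narrower axis. Every cholesterol synthesis gene lies left of 0 (median -0.99), motor neuron genes come next (median -0.79), and excitatory interneuron genes lie mostly right of 0 (median 0.23).

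Energy genes changed by small amounts. Of 30 nuclear genes of oxidative phosphorylation 11 fell and none rose (median -0.19), 6 with library totals alone and 0 without the 4 libraries highest in nerve root genes or with the grouping by library names. It was 23 with only the 12 libraries in the fit, 25 without the libraries of older mice and 18 without the 4 libraries whose names and titles disagree. Leaving out wild-type replicate 2, 4, 5 or 6 or transgenic replicate 4, 5 or 6 gave 6 or 7. Ndufs1 (-0.27), Ndufa9 (-0.31), Atp5a1 (-0.28) and Atp5b (-0.32) had the smallest adjusted p-values. None of the 13 genes of the mitochondrial genome was called (median -0.07, and 0.03 with library totals alone). Of 17 glycolysis genes 11 fell and 1 rose (median -0.19), but 4 and 2 with library totals alone. There were 7 lower without transgenic replicate 5 or 6, and 2 with the grouping by library names. Eno2, the neuronal enolase, fell (log2 fold change -0.41, SE 0.07, adjusted p = 0.00013). Hk2, the inducible hexokinase known from activated microglia, ran from 4.11 to 5.54 CPM (median 4.63) in wild type and from 14.3 to 19.1 CPM (median 15.5) in transgenic cord (log2 fold change 1.79, SE 0.32, adjusted p = 0.00037).

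Stress genes did not share 1 direction. Of 14 heat shock genes 8 fell and 2 rose (median -0.23; 5 and 3 with library totals alone). Leaving out the 4 libraries highest in nerve root genes gave 4 lower. Hsph1, HSP105, ran from 316 to 414 CPM (median 374) in wild type and from 214 to 302 CPM (median 245) in transgenic cord (log2 fold change -0.57, SE 0.09, adjusted p = 9.1e-05). Hspa1a ran from 3.79 to 42.5 CPM in wild type and from 2.82 to 12.6 CPM in transgenic libraries (log2 fold change -1.68, SE 0.47, adjusted p = 0.0097). The list was low in the 3 wild-type females (-0.33 to -0.25) and high in the 3 wild-type males (0.24 to 0.32), where the transgenic libraries lay between -0.49 and 0.02. Hspb6 (0.68) and Hspb8 (0.31), small chaperones, rose. Of 18 genes of the ER chaperone list 3 rose and 3 fell (median 0.06), and Hspa5, the central ER chaperone, was not called (-0.051, adjusted p = 0.75). In the ATF4 list 6 of 17 rose and 1 fell (median 0.04): Nupr1 (1.51), Atf5 (0.53), Cebpg (0.26) and Trib3 (0.76) rose and Asns fell (-0.39). Atf4 itself was not called (-0.14, adjusted p = 0.067).

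Of 29 proteasome genes 13 fell and 2 rose (median -0.08), but 5 and 5 with library totals alone, where the median turned to 0.01. There were 7 lower without the 4 libraries highest in nerve root genes. The 2 that rose, Psme1 (0.65) and Psme2 (0.46), form the interferon-inducible activator. Psmc5 fell by 0.34. Metallothioneins rose, Mt2 from 75.8 ± 6.34 to 193 ± 24.1 CPM (SD, n = 6) (log2 fold change 1.34, SE 0.17, adjusted p = 1.3e-05) and Mt1 by 1.19, in a list of 14 antioxidant genes with 7 higher and 2 lower (median 0.13). Of 12 genes of iron handling, Slc11a1, the phagosomal metal transporter (log2 fold change 2.91, SE 0.24, adjusted p = 2.9e-07), Ftl1 (1.46), Hmox1 (1.43) and Steap3 (0.93) rose and the ferroxidase Heph fell (-0.57). That list's median was -0.04, and 0.05 with library totals alone.

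Among 22 genes linked to ALS 4 rose and 5 fell (median -0.07, and 0.03 with library totals alone), shares near the 18.8% and 17.9% of all genes, so the counts are no result about these genes as a list. There were 8 lower without the 4 libraries whose names and titles disagree. Ang, angiogenin, went from 0.408 ± 0.0587 to 1.54 ± 0.152 CPM (SD, n = 6) (log2 fold change 1.91, SE 0.23, adjusted p = 7.1e-06), and the RNA-binding proteins Hnrnpa1 (0.20) and Hnrnpa2b1 (0.25) rose slightly. C9orf72 (-0.29), Vapb (-0.28), Fig4 (-0.27) and Atxn2 fell. Atxn2 ran from 118 to 133 CPM (median 123) in wild type and from 103 to 111 CPM (median 106) in transgenic cord (log2 fold change -0.22, SE 0.03, adjusted p = 9.5e-05), and on unscaled CPM the exact two-sided permutation test gave p = 0.00216 for a log2 difference of -0.12. Tardbp, which encodes TDP-43 (0.061, adjusted p = 0.44), Sod1 (-0.061, adjusted p = 0.38) and Nek1 (-0.012, adjusted p = 0.93) were not called.

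Actin genes, the pathway of profilin itself, went both ways. Of 48 actin regulators 21 rose and 8 fell (median 0.10). Was, the nucleation factor of blood cells (log2 fold change 1.71, SE 0.16, adjusted p = 4.9e-07), Capg (log2 fold change 2.55, SE 0.23, adjusted p = 4.9e-07), a capping protein of macrophages, Cotl1 (0.92) and Coro1a (0.47), both also known from leukocytes, rose most clearly. Wasf3 (-0.36), Pls3 (-0.30), Wasf1 (-0.23) and Cap2 (-0.32) fell. With library totals alone 28 rose and 5 fell. Cfl1 (0.092, adjusted p = 0.055) and Actg1 (0.089, adjusted p = 0.2) were not called, and beta-actin, Actb, had 0.41 (adjusted p = 1.0e-05).

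In the matrix, 7 of 17 genes rose and none fell (median 0.44), but 4 rose without wild-type replicate 3 or without transgenic replicate 1 or 6. Postn, periostin, ran from 1.31 to 2.34 CPM (median 1.86) in wild type and from 25.7 to 53.3 CPM (median 40.9) in transgenic cord (log2 fold change 4.40, SE 0.35, adjusted p = 2.5e-07). Tnc (1.72) and Loxl2 (1.35) rose, and the collagens Col4a1 (-0.16, adjusted p = 0.62) and Col6a1 (0.33, adjusted p = 0.2) were not called. Of 15 metalloproteinases and inhibitors 6 rose and 2 fell (median 0.32). Mmp12, already named, Mmp19 (2.18), Adam8 (1.41) and Mmp2 (1.14) rose and Mmp17 (-0.30) and Mmp15 (-0.28) fell.

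The plot of list means by library shows how alike the transgenic libraries were. The disease-associated microglia list lay between 2.77 and 3.11 above the wild-type mean in all 6, the reactive astrocyte list between 1.43 and 1.71 and cholesterol synthesis between -1.13 and -0.75. The lists of Schwann cells, fibroblasts, neutrophils and red cells overlapped between the groups. Transgenic replicates 2 and 3 were the most alike pair, with a root mean square log2 difference of 0.72 over the 300 most variable genes, against 1.09 to 2.43 in the other transgenic pairs. They share sex and age. Their counts differed by more than counting noise (median chi-square per gene 3.46, and 2.77 to 7.73 in the other transgenic pairs), so they are not 1 library deposited in 2 copies. Whether they came from 1 animal cannot be read from this.

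**Figure D4:**
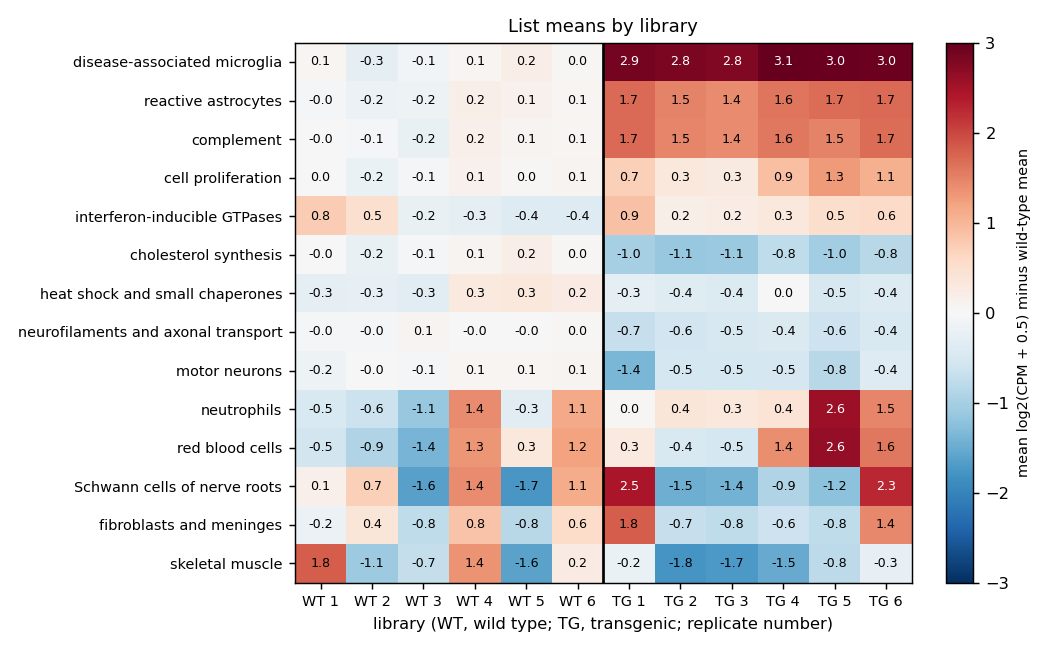
Mean log2(CPM + 0.5) of 14 lists in each library, as a difference from the mean of the 6 wild-type libraries. Columns are libraries (WT 1 to 6 and TG 1 to 6), colors run from blue (lower) to red (higher). The microglial, astrocyte, complement, proliferation, cholesterol, axonal and motor neuron rows separate the groups in every library, while Schwann cell and fibroblast rows are highest in TG 1 and TG 6 and neutrophil and red cell rows in TG 5.

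Several calls of genes named in the text did not hold in every setting, and none reversed. With library totals alone Adra1d, Ccnk, Cntfr, Cx3cl1, Evx1, Igf1r, Kpna1, Maged1, Map3k12, Mmp15, Ntrk3 and Olig1 were not called. Without the 4 libraries highest in nerve root genes 5330413P13Rik, Adra1d, Aqp4, Atp5a1, Atp5b, Ccnk, Cd38, Cldn11, Cntfr, Cx3cl1, Evx1, Fa2h, Gbp3, Gbp5, Gvin1, Hspa1a, Hspa1b, Kcnj2, Mlkl, Mmp15, Ndufa9, Ndufs1, Npff, Ntrk3, Nts, Olig1, Pvalb, Ripk3, Slc2a5, Tmem119, Trf and Vegfa were not called. Without the 4 libraries whose names and titles disagree 5330413P13Rik, Adra1d, Ccnk, Cfap126, Chrna2, Cntfr, Cx3cl1, Evx1, Fa2h, Gbp3, Gvin1, Hspa1a, Hspb8, Mmp15, Mmp8, Npff, Nts, Olig1, Sox14, Tmem119 and Ugt8a were not called, and without the mice older than 36 weeks Cartpt, Ccnk, Cldn11, Hist1h1c, Hspb8, Kpna1, Lifr, Nmrk1, Npff, Nts, Plcd4, Scn1a, Sox14, Tfeb, Tmem119 and Trf. Fewer libraries enter the last 3 fits.

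The transgene effect, here and below, is the difference between transgenic and wild-type libraries. The groups also differed at Nbdy, and the parts of the transgene and of that difference cannot be told apart. Whether the transgene effect differed between the sexes was tested with an interaction term. That test called 2074 genes (10.2%), 559 with a higher effect in females and 1515 with a lower one. This count rests on single libraries. Without transgenic replicate 5 it was 0 in edgeR (4973 genes at an unadjusted p under 0.05), without wild-type replicate 4 it was 1, without wild-type replicate 3 or transgenic replicates 2 or 6 it was 2, without transgenic replicate 1 it was 4 and without wild-type replicate 5 it was 9. Without wild-type replicate 1 it was 873, without transgenic replicate 3 it was 2460, and with library totals alone 1160. Fitting only the 12 libraries gave 3999 and DESeq2 3078. Age goes partly with sex, as the older mice were female. Gvin1, a very large interferon-inducible GTPase, had the smallest adjusted p: its effect was -0.14 (SE 0.17) in females and 1.78 (SE 0.18) in males, a difference of -1.92 (adjusted p = 0.0115). The effect on Phlda1 was 0.26 in females and -0.42 in males, and on the neuropeptide gene Cartpt 0.82 and -0.07. Prrt1 (0.42 and -0.15), Neu1 (0.12 and -0.24) and the histone gene Hist1h1c (0.56 and 0.05) also had higher effects in females. Slc25a32 (-0.30 and 0.26), Minar1 (-0.81 and -0.03), Kpna1 (-0.63 and -0.01) and Senp7 (-0.52 and 0.29) had lower ones. Over 18 alternatives these 10 genes kept the call in 11 to 16.

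In the joint fit of 22316 genes over the 3 tissues the transgene effect of spinal cord differed from that of cortex in 2161 genes (9.68%), 1215 with a higher and 946 with a lower effect in cord. In cortex itself 12 genes were called (0.0538%). Plau, the urokinase gene, had an effect of 3.60 in cord and -0.08 in cortex, a difference of 3.69 (SE 0.31, adjusted p = 4.0e-11). Ctsz (1.98 and 0.06), Cyba (2.86 and 0.05), the inhibitory receptor Cd300a (3.36 and -0.12) and Trem2 (2.87 and -0.04) followed. Among lower effects Nsf, the ATPase of vesicle fusion, had -0.55 in cord and 0.08 in cortex, and Hmgcs1 had -1.47 and -0.10. Lss (a difference of -0.94), Dffa (-0.84 and -0.07) and Ap3s2 (-0.46 and -0.03) completed the 5. Of the 25 disease-associated genes 23 had a higher effect in cord than in cortex (medians 2.78 and 0.18), of 10 Fc receptor and Ms4a genes 10 (3.32 and 0.09) and of 20 reactive astrocyte genes 13 (1.69 and 0.15). Of 21 cholesterol synthesis genes 19 had a lower effect in cord (-1.02 and -0.06), of 19 axonal genes 12 (-0.57 and -0.05) and of 18 motor neuron genes 6 (-0.82 and 0.15).

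Muscle responded too, with 9157 genes called (41%), and its effect differed from that of cord in 6914 (31%), 3235 with a higher and 3679 with a lower effect in cord. The monocarboxylate transporter Slc16a3 had 1.77 in cord and -1.73 in muscle, a difference of 3.49 (SE 0.22, adjusted p = 1.7e-16). Tpbgl (0.30 and -2.92), Ccnk (-0.15 and -1.26), Plcd4 (0.12 and -1.86) and Atp13a5 (0.08 and -2.03) followed, all of them genes that fell in muscle. Aif1l (-0.33 and 4.61), Fez1 (-0.18 and 4.39), Maged1 (-0.29 and 1.95), Ankrd55 (-0.44 and 6.27) and Nrcam (-0.14 and 5.03) rose in muscle. The disease-associated list had medians of 2.78 in cord and 0.91 in muscle, and 20 of 25 genes had a higher effect in cord. Proliferation genes had 1.21 and 1.42, with 3 of 23 effects higher and 3 lower in cord. As 31% of all genes differed in either direction, these counts do not stand above the level of all genes. Neuronal injury genes had 0.26 and 1.44, with 1 of 16 higher and 7 lower in cord. Cholesterol synthesis had -1.02 and -0.10, with 18 of 21 effects lower in cord. The tissues are treated as separate samples, since the labels do not tie them to animals.

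**Figure D5:**
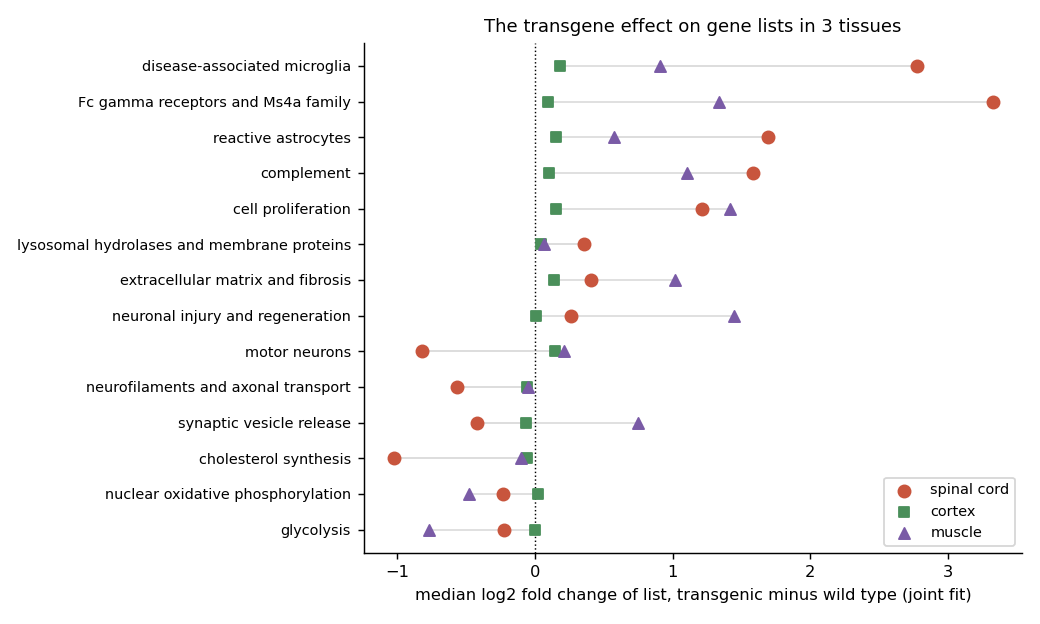
Median log2 fold change of 14 lists, transgenic minus wild type, in spinal cord (circles), cortex (squares) and muscle (triangles), from the joint fit. Cortex medians stay between -0.06 and 0.18. Cord is farthest from 0 for the microglial, Fc receptor, astrocyte, complement, lysosomal, motor neuron, axonal and cholesterol lists, and muscle for the other 6.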

How the data were processed

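For spinal cord, 6 RNA-seq libraries of transgenic and 6 of wild-type mice were compared, with a further arm of 6 libraries of transgenic mice in the fit. The deposited values are expected counts per gene that the authors made with RSEM 1.3.2 after STAR 2.7.2d, on GRCm38 and GRCh38, per the submitters' processing notes, which also list bcl2fastq 2.20 and DESeq2 1.34.0. The annotation release and strand setting are not given in the sources used here, so overlapping and near-identical genes may share counts. The expected counts were rounded to whole numbers. At most 0.0736% of a library lay outside mouse genes. Symbols came from GENCODE M21 (55141 of 55401 IDs matched) and promoters from RefSeq (GRCm38.p6).

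Genes were filtered with filterByExpr and fitted in edgeR 4.0.16 (R 4.3.3) with TMM scaling and the quasi-likelihood test, on arm and sex over 18 libraries, with Benjamini-Hochberg adjustment at 0.05. The libraries compared held 78927071 to 109285103 counts. The sex and tissue differences were interaction contrasts, the latter in a joint fit of 52 libraries. Exact tests used scipy 1.17.1. List means used log2(CPM + 0.5). Equal replicate numbers do not pair the libraries. On simulated counts of 20307 genes for the comparison of transgenic with wild type, 51 of 100 genes changed by 0.5 on the log2 scale and 76 of 100 changed by 1 were called, with 9 false calls among 136. These changes were few and balanced up and down. In the data 7442 genes were called and large changes were mostly rises, so the simulated rates need not hold there.

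The members and gene lists were chosen with earlier results of these data known. Genes named are human PFN1, Pfn1 and Atxn2, the 12 largest rises and falls among called genes of at least 1 CPM, the 10 largest gains and losses in CPM, the 5 genes per direction with the smallest adjusted p for each difference between sexes or tissues, and up to 4 called members per direction of each list. Other members are given as values and were chosen for their known role or position after values were seen. Alternatives covered scaling, filters, covariates, DESeq2 1.42.0, and leaving out libraries. The fit of the sex difference without TMM and all fits without the libraries highest in nerve root genes were added after seeing the data. Some genes that the rule names are not reported here, and the treated arm is not described.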

Additional observations from a re-analysis of the deposited data

Results flagged for a closer look

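In each group of 6, the value of the highest or lowest library was compared with the rest for the 389 genes named. Gap and range were taken on log2(CPM + 0.5), and groups with a very small range on that scale were never flagged. In 28 of 778 gene and group combinations, the gap to the nearest library took more than 0.625 of the group's range. Chance alone would flag about 1 in 20 if values were normally distributed and no group were skipped. Shares of the range are given in brackets. Among wild type libraries 1 stood alone at the high end for Aqp6 in replicate 4 (0.677), Cd8a in replicate 5 (0.738), Map1a in replicate 3 (0.675), Mia in replicate 2 (0.632), Sprr1a in replicate 5 (0.630), Srebf1 in replicate 4 (0.769) and Trbc2 in replicate 5 (0.681). Among wild type libraries 1 stood alone at the low end for Cyba in replicate 3 (0.630), Fas in replicate 2 (0.730), Gpnmb in replicate 2 (0.756), Hnrnpa1 in replicate 4 (0.657), Plau in replicate 2 (0.644) and Steap3 in replicate 3 (0.756). Among transgenic libraries 1 stood alone at the high end for Ccl4 in replicate 4 (0.653), Cfap126 in replicate 5 (0.743), Ctsh in replicate 4 (0.638), Lyz1 in replicate 1 (0.706), Mmp9 in replicate 5 (0.681), Ms4a1 in replicate 3 (0.654), Neu4 in replicate 4 (0.648), Trbc2 in replicate 2 (0.633), Trem2 in replicate 4 (0.656) and Tyrobp in replicate 4 (0.683). Among transgenic libraries 1 stood alone at the low end for Aldh1l1 in replicate 6 (0.825), Cap2 in replicate 6 (0.660), Chat in replicate 1 (0.642), Mcoln3 in replicate 1 (0.703) and Ndufa9 in replicate 5 (0.700). Chat was 6.14 CPM in transgenic replicate 1 against 12.4 to 18.2 CPM in the other 5. Gpnmb was 0.25 CPM in wild type replicate 2 against 0.631 to 0.792 CPM in the other 5. Mmp9 was 6.73 CPM in transgenic replicate 5 against 4.18 to 4.88 CPM in the other 5. Transgenic replicate 4 held 5 of the 28.

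The effect of genotype differed between groups by the tests described above. It differed between the sexes in 2074 genes, and the female minus male differences on the log2 scale, with the genes of smallest adjusted p in each direction, were Phlda1 (0.69), Prrt1 (0.56), Cartpt (0.89), Neu1 (0.36), Hist1h1c (0.51), Gvin1 (-1.92), Slc25a32 (-0.56), Minar1 (-0.77), Kpna1 (-0.62) and Senp7 (-0.81). It differed between spinal cord and cortex in 2161 genes, with differences of Plau (3.69), Ctsz (1.93), Cyba (2.81), Cd300a (3.48), Trem2 (2.91), Nsf (-0.62), Lss (-0.94), Dffa (-0.77), Ap3s2 (-0.43) and Hmgcs1 (-1.37). It differed between spinal cord and muscle in 6914 genes, with differences of Slc16a3 (3.49), Tpbgl (3.22), Ccnk (1.12), Plcd4 (1.98), Atp13a5 (2.10), Aif1l (-4.94), Fez1 (-4.57), Maged1 (-2.24), Ankrd55 (-6.71) and Nrcam (-5.16). The sex count falls to between 0 and 9 without any of 7 single libraries.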

How the results depend on the processing

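Over the 26 settings of the main comparison between 5308 and 7920 genes were called. The replicate block gave 7026, and it is no paired analysis: same-numbered libraries correlated between -0.16 and 0.34 in their deviations, 2 of 6 pairs over 0.1, and 2 of 6 libraries correlated best with their own number. Leaving out 1 library gave 6682 to 7206. Over 2-fold, 1145 genes were called, 661 when a mean of 1 CPM was required, where fewer are tested, and glmTreat called 519, since it tests against that fold. Leaving out 1 library gave 1117 to 1202. The sex difference called 3999 genes in the 12 libraries alone and 1160 with library totals alone; leaving out 1 library gave 0 to 2460. The cause was not tested. The cord minus cortex count lay between 1814 and 3074 and the cord minus muscle count between 6312 and 7178. Atxn2 had -0.33 (SE 0.13, adjusted p = 0.062 in edgeR) when 4 libraries were grouped by their names, and its calls held in the other 24 alternatives.

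Of 320 named genes called, 265 were called in each of 25 alternatives run, 55 lost the call in at least 1 and 0 reversed. Of 69 named genes not called, 26 were called in at least 1. The call was lost in 32 named genes without the 4 libraries highest in nerve root genes, in 28 with the grouping by library names and in 12 with library totals alone. With a mean of at least 1 CPM required, fewer genes are tested, and 1 T cell gene, 0 natural killer genes, 3 border macrophage genes and 4 chemokines were called higher.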
